A study of Ovis aries with 24 samples.

Results

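The genes described here build the machinery of DNA replication and mitosis. The list holds 42 gene symbols, matched exactly to the gene name column of the raw count tables. Of these, 36 had a row among the 27054 features, and every one of the 36 had enough counts to be tested in each comparison. MKI67, E2F1, CCNB1, MCM2, RRM2 and KIF11 had no row under those symbols and were not analysed here.

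RNA sequencing was performed on 24 libraries of cultured anterior pituitary cells from ovariectomized ewes of the Western white faced breed; no label gives their age. Dispersed cells were exposed 24 hours later to an adenovirus designed to express green fluorescent protein (GFP) in gonadotropes, the cells that make luteinizing and follicle-stimulating hormone, and after 3 more days they were treated with vehicle (ethanol) or with estradiol (E2) at 10 nM over 6 hours. Sorted libraries come from cells collected by fluorescence, and unsorted libraries from the mixed anterior pituitary culture. The 4 groups, with 6 libraries each, are therefore sorted cells with vehicle, sorted cells with E2, and the unsorted cells with each, all from cultures of ewes without ovaries and, as the shared protocol reads, all exposed to the virus. The sorted cells are those in which the viral construct was active, so the group is defined by a reporter and not by a hormone stain. Nothing in the labels says which libraries share an animal or a culture dish, and the p-values measure the spread between these libraries.

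A cell prepares to copy its DNA by loading the MCM helicase onto replication origins with the help of CDC6 and CDT1, a step called licensing. Cyclins and their kinases then start DNA synthesis and later drive entry into mitosis, where the Aurora, Polo and checkpoint kinases, the spindle proteins and the anaphase-promoting ubiquitin ligase act in turn. Many of these genes are transcribed only in part of the cell cycle, so the mitotic ones are low in RNA from tissue in which few cells divide, while several replication genes also serve DNA repair or nucleotide supply in cells that do not divide.

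Library depth fell into distinct sets. Replicates 1 to 3 of every group held 4185088 to 6189629 counts and replicates 4 to 6 held 19216735 to 37042448; the labels name no batch. Levels are given as CPM, counts scaled to a common library total after TMM normalization (the trimmed mean of M-values), and compare one gene between libraries, not one gene with another. Fold changes are on the log2 scale with their standard error (SE), from edgeR's quasi-likelihood test, and a gene is called when its Benjamini-Hochberg adjusted p over all genes tested is under 0.05. The sort label was checked on gonadotrope markers: CGA, LHB, FSHB, GNRHR and NR5A1 were higher in sorted than in unsorted vehicle libraries, and PITX1 was not called. The summed level of 8 markers of other hormone cells (PRL, GH, POMC, TSHB, POU1F1, TBX19, TRHR and GHRHR) was also higher in the sorted libraries, at 78240 to 204300 CPM against 46280 to 120300 CPM, so the sorted libraries hold RNA of those types too.

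The first comparison asks how the cell-cycle genes differ between the sorted cells and the whole culture. In vehicle-treated cells 33 of the 36 genes were lower in the sorted libraries, none was higher, and CDC45, PCNA and RRM1 were not called. In the same fit 25.8% of all 14468 genes tested were called lower and 24.4% higher. The median log2 fold change of the 36 genes was -1.40, against 0.016 for all genes. In the E2-treated libraries 33 of 36 were lower, none was higher, the same 3 genes were not called, and the median was -1.26. There 26% of 14545 genes were called lower. No library is shared with the vehicle comparison. Yet same-numbered vehicle and E2 libraries deviated together, with correlations of 0.66 to 0.86 in sorted and 0.57 to 0.84 in unsorted cells. The E2 comparison is therefore not an independent repeat. The sorted and unsorted groups did not overlap for 27 genes in vehicle and 25 genes in E2, lower in the sorted libraries in each case; over all genes tested the groups were apart in that direction for 16.4% and 17.1%, and in the higher direction for 11.3% and 11.2%. Paired by replicate number, 33 genes were lower in 6 of 6 pairs in both comparisons, as were 28.8% of all genes in vehicle and 30.7% in E2; PCNA, higher in 6 of 6 in vehicle, shared that with 27.7% (28.1% in E2, where none of the 36 was).

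**Figure D1:**
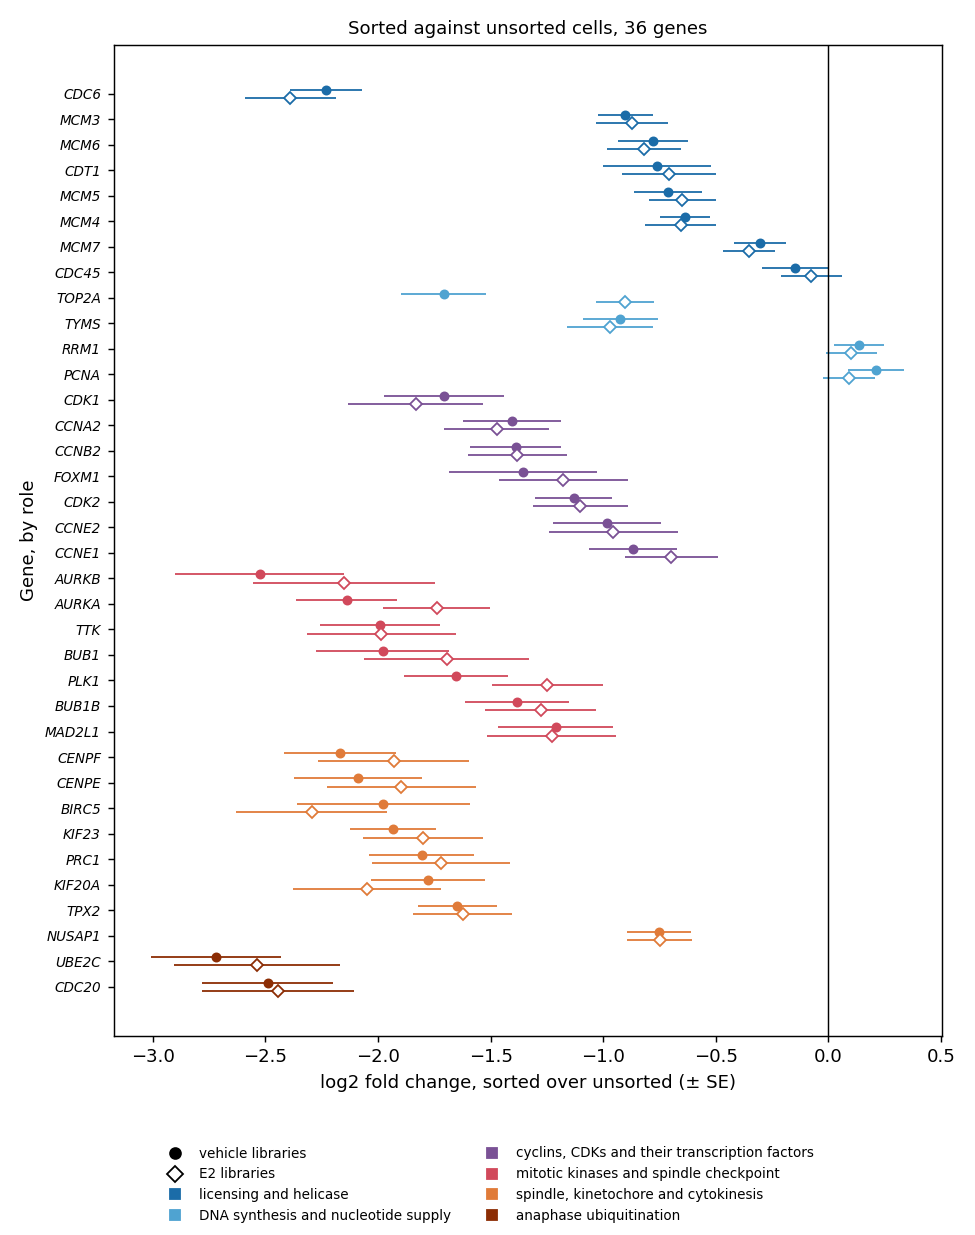
Log2 fold change of sorted over unsorted cells for 36 genes, ordered by role, in vehicle libraries (filled circles) and E2 libraries (open diamonds); bars are ± SE and each comparison has 6 libraries per group. CDC6 lies far to the left of the other licensing genes, the anaphase genes UBE2C and CDC20 lie at -2.72 and -2.49 in vehicle, and CDC45, RRM1 and PCNA lie near 0. TOP2A is the gene whose symbols stand farthest apart.

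The size of the difference varied with the role of the gene. The median log2 fold change in vehicle was -0.74 for the 8 licensing and helicase genes and -0.40 for the 4 genes of DNA synthesis and nucleotide supply. It was -1.36 for the 7 cyclins, cyclin-dependent kinases and FOXM1. The mitotic groups lay lower, with -1.98 for the 7 kinases and checkpoint genes, -1.87 for the 8 spindle, kinetochore and cytokinesis genes, and -2.60 for the anaphase pair. As median folds these were 1.67, 1.31, 2.56, 3.94, 3.66 and 6.08. In E2 the same medians were -0.68, -0.41, -1.18, -1.70, -1.85 and -2.49. These medians are descriptions; no test was made between the role groups.

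Among the licensing genes CDC6 (ENSOARG00000014063), the ATPase that helps load the MCM helicase, stood apart. Its level was 9.19 to 15.3 CPM in sorted vehicle libraries (median 13.6) and 49.4 to 77.5 CPM in unsorted vehicle libraries (median 59.3). Every sorted library was far below every unsorted one, with a log2 fold change of -2.23 ± 0.16 (adjusted p = 1.2e-07, edgeR). Under E2, CDC6 was 6.24 to 16.6 CPM in sorted and 52.4 to 74 CPM in unsorted libraries, a log2 fold change of -2.39 ± 0.20 (adjusted p = 1.2e-06, edgeR). The other 7 licensing genes had vehicle values between -0.90 and -0.15.

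The MCM genes encode subunits of the replicative helicase. MCM3 was 23.3 to 33.6 CPM (median 29.7) in sorted and 45.3 to 68.2 CPM (median 54.4) in unsorted vehicle libraries. These ranges do not overlap, and the log2 fold change was -0.90 ± 0.12 (adjusted p = 3.5e-05, edgeR). MCM4 was 41 to 48.3 CPM in sorted and 57.8 to 85.6 CPM in unsorted vehicle libraries, with a log2 fold change of -0.64 ± 0.11. MCM6 overlapped, at 58.1 to 86.5 CPM in sorted and 81.9 to 160 CPM in unsorted vehicle libraries, yet every pair had the lower value in the sorted library (-0.78 ± 0.16, adjusted p = 0.00084, edgeR). MCM5 had a log2 fold change of -0.71 ± 0.15. MCM7 had the smallest called difference, -0.30 ± 0.12 (adjusted p = 0.041, edgeR), and it was no longer called on leaving out any of replicates 1 to 5 of sorted vehicle or 4 to 6 of unsorted vehicle, with adjusted p up to 0.098 over those fits and from 0.00081 to 0.18 over all 19 alternatives. In the E2 libraries MCM7 was called in all 12 fits that left out a library (-0.35 ± 0.12).

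CDT1, the other helicase loader, was 5.28 to 11.1 CPM (median 7.08) in sorted and 7.18 to 19.4 CPM (median 11.9) in unsorted vehicle libraries. The groups overlap, while all 6 pairs were lower in the sorted library, and the log2 fold change was -0.76 ± 0.24 (adjusted p = 0.016, edgeR). CDC45, which joins the MCM ring to form the active helicase, was 12.4 to 20.2 CPM in sorted and 15.7 to 25.9 CPM in unsorted vehicle libraries. Its pairs split 3 against 3, and its log2 fold change of -0.15 ± 0.15 was not called (adjusted p = 0.41, edgeR).

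The genes of DNA synthesis and nucleotide supply went in different directions. PCNA (ENSOARG00000017133), the sliding clamp of replication and repair polymerases, was 77.2 to 95.9 CPM (median 82.4) in sorted and 56.5 to 95.8 CPM (median 71) in unsorted vehicle libraries. The ranges overlap, but each of the 6 pairs had the higher value in the sorted library. The log2 fold change was 0.21 ± 0.13 (adjusted p = 0.18, edgeR) without the replicate block and 0.23 ± 0.07 (adjusted p = 0.019) with it, so PCNA was called higher in the paired fit, where 32.5% of all genes were called higher and 31.1% lower. Over 19 alternatives its adjusted p ran from 0.0068 to 0.34 and was under 0.05 in 3: the replicate block, the deep replicates 4 to 6, and the fit without unsorted vehicle replicate 1. The deep replicates had 5104 of 15625 genes called higher, and the fit without that library 3456 of 15198. Under E2 the log2 fold change of PCNA was 0.09 ± 0.12 (adjusted p = 0.53, edgeR).

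RRM1, the large subunit of ribonucleotide reductase, was 122.7 to 155.4 CPM (median 149.7) in sorted and 108.6 to 171 CPM (median 132.4) in unsorted vehicle libraries. The sorted libraries sat inside the unsorted range, and 0.14 ± 0.11 (adjusted p = 0.33, edgeR) was not called. With replicates 4 to 6 alone, RRM1 was called higher in both sort comparisons (adjusted p = 0.028 in vehicle and 0.021 in E2, edgeR). The ranges over all alternatives were 0.028 to 0.69 and 0.021 to 0.88. In those deep replicates 5104 of 15625 genes were called higher in vehicle and 5050 of 15606 in E2. TYMS, the thymidylate synthase, was 16.1 to 29.2 CPM (median 25.4) in sorted and 35.2 to 57.9 CPM (median 46.2) in unsorted vehicle libraries, with no overlap and a log2 fold change of -0.93 ± 0.17 (adjusted p = 0.00039, edgeR). TOP2A, the topoisomerase that untangles replicated chromosomes, is described with the E2 comparison, in which it was called.

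**Figure D2:**
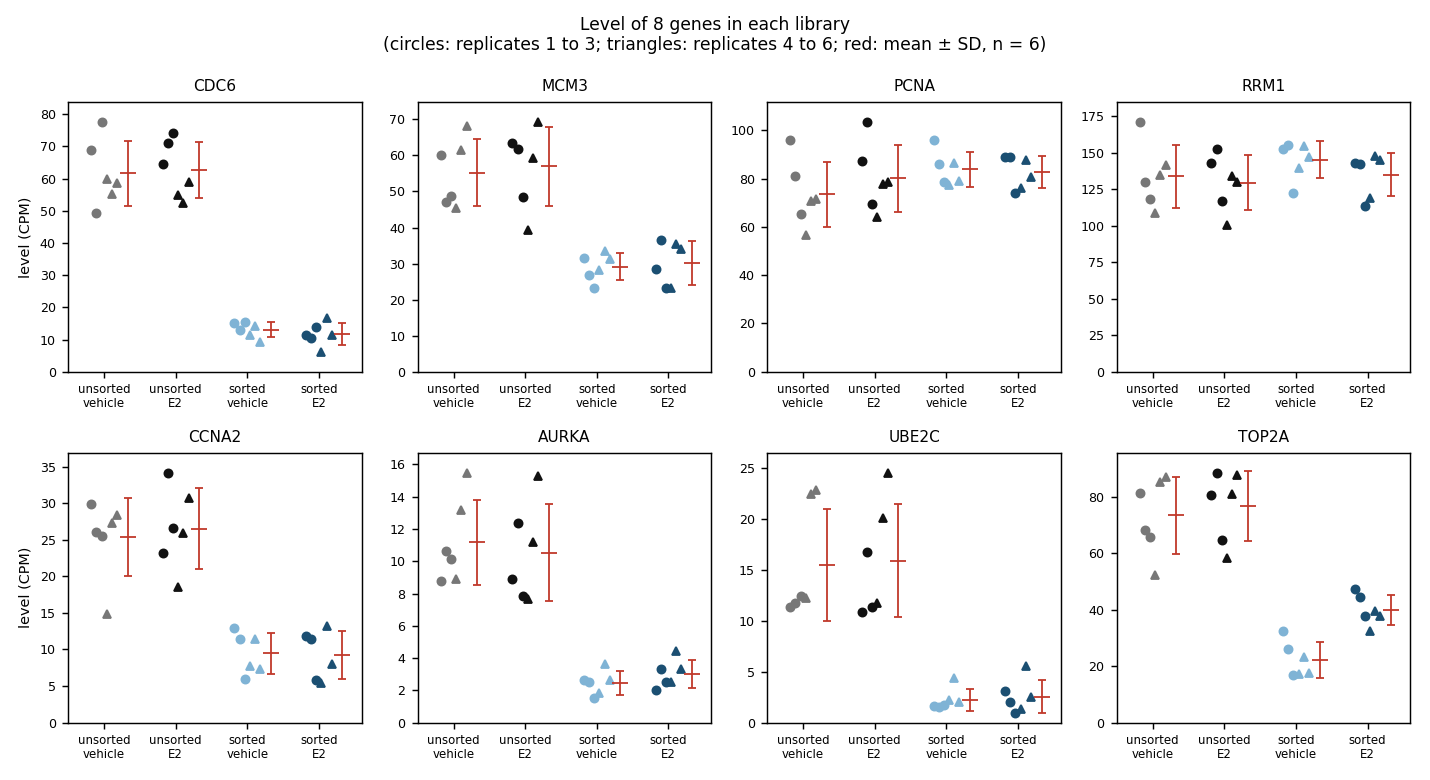
Level in CPM of 8 genes in each library of the 4 groups; circles are replicates 1 to 3, triangles replicates 4 to 6, and red marks the mean ± SD (n = 6). CDC6, MCM3, AURKA and UBE2C separate sorted from unsorted libraries under both treatments, PCNA and RRM1 overlap, and TOP2A is the gene whose sorted E2 libraries all lie above the sorted vehicle libraries.

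Cyclins and their kinases were lower throughout the sorted libraries. CCNA2, the cyclin of S phase and mitotic entry, was 5.96 to 12.9 CPM (median 9.57) in sorted and 14.9 to 29.9 CPM (median 26.7) in unsorted vehicle libraries, a log2 fold change of -1.41 ± 0.22 (adjusted p = 0.00012, edgeR). CDK1, the kinase that triggers mitosis, was 5.01 to 10.5 CPM (median 5.84) in sorted and 14 to 36.4 CPM (median 19.4) in unsorted vehicle libraries (-1.71 ± 0.27, adjusted p = 0.00012, edgeR). Neither gene's groups overlap. CCNB2, a mitotic cyclin, had a log2 fold change of -1.39 ± 0.20, and CDK2, the kinase of the S phase cyclins, one of -1.13 ± 0.17. The E cyclins, which act at the start of S phase, were less far apart. CCNE1 was 6.6 to 11.1 CPM in sorted and 9.47 to 20 CPM in unsorted vehicle libraries (-0.87 ± 0.20, adjusted p = 0.0022, edgeR), and CCNE2 was 9.97 to 25.1 CPM against 18.6 to 45.7 CPM (-0.99 ± 0.24, adjusted p = 0.0035, edgeR). Both E cyclins overlapped between groups while all 6 pairs were lower in the sorted library. FOXM1, a transcription factor of mitotic genes, had -1.36 ± 0.33.

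All 7 mitotic kinase and checkpoint genes were called lower in the sorted libraries of both treatments. AURKA, the spindle-pole Aurora kinase, was 1.53 to 3.66 CPM (median 2.58) in sorted and 8.78 to 15.5 CPM (median 10.4) in unsorted vehicle libraries (-2.14 ± 0.22, adjusted p = 3.3e-06, edgeR). AURKB, the Aurora kinase of the chromosomal passenger complex, was 0.34 to 2.70 CPM (median 1.21) in sorted and 4.85 to 12.6 CPM (median 7.40) in unsorted vehicle libraries (-2.53 ± 0.38, adjusted p = 7.9e-05, edgeR). Both Aurora kinases separated the groups in full. TTK, a spindle checkpoint kinase, was 1.36 to 3.82 CPM against 6.88 to 16.3 CPM (-1.99 ± 0.27, adjusted p = 3.2e-05, edgeR). PLK1, the Polo kinase of mitotic entry and spindle assembly, was 4.21 to 6.21 CPM against 9.98 to 24.1 CPM (-1.65 ± 0.23, adjusted p = 4.2e-05, edgeR). The checkpoint genes BUB1, BUB1B and MAD2L1 had log2 fold changes of -1.98, -1.38 and -1.21. Counts were small here: the lowest count of a gene of this group in a sorted vehicle library was 2, for AURKB.

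The spindle, kinetochore and cytokinesis genes behaved alike except NUSAP1. KIF23, a kinesin of the central spindle, was 5.28 to 9.97 CPM (median 7.07) in sorted and 18.2 to 35.8 CPM (median 30.6) in unsorted vehicle libraries (-1.93 ± 0.19, adjusted p = 2e-06, edgeR). TPX2, which activates AURKA on the spindle, was 9.36 to 17.3 CPM against 31.1 to 52.2 CPM (-1.65 ± 0.18, adjusted p = 3.9e-06, edgeR). CENPF, a kinetochore protein, was 2.72 to 7.37 CPM against 12.9 to 29.2 CPM (-2.17 ± 0.25, adjusted p = 8.1e-06, edgeR). None of these groups overlap. PRC1, which bundles microtubules at the spindle midzone, was 3.74 to 8.11 CPM against 14 to 25.3 CPM (-1.81 ± 0.23, adjusted p = 2.2e-05, edgeR). CENPE, BIRC5 and KIF20A had log2 fold changes of -2.09, -1.98 and -1.78. NUSAP1, a microtubule-binding protein of the spindle, had -0.75 ± 0.14 in vehicle and -0.75 ± 0.15 in E2.

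The pair of anaphase genes had the lowest median of the role groups, although AURKB (-2.53) was further down than CDC20. UBE2C (ENSOARG00000006520), a ubiquitin-conjugating enzyme of the anaphase-promoting complex, was 1.52 to 4.38 CPM (median 1.85) in sorted and 11.4 to 22.8 CPM (median 12.3) in unsorted vehicle libraries. That is a log2 fold change of -2.72 ± 0.29 (adjusted p = 4.1e-06, edgeR), with 15.2% of the unsorted level left. CDC20, the activator of the same complex, was 2.89 to 8.96 CPM (median 5.26) against 19.8 to 50.5 CPM (median 29.6), a log2 fold change of -2.49 ± 0.29 (adjusted p = 9.9e-06, edgeR). The groups of both genes were apart in vehicle and in E2.

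Most marker lists of other cell types differed with the sort. In the vehicle comparison 25.8% of all 14468 genes tested were called lower and 24.4% higher. Of 9 folliculostellate and stem cell markers tested, 7 were lower and 2 higher in sorted vehicle libraries, with SOX2 at -2.95 and SOX9 at -2.62; the summed level of the 10 listed genes with a row was 2802 to 3585 CPM in sorted and 6505 to 8490 CPM in unsorted vehicle libraries. Of 9 fibroblast and pericyte markers 5 were lower and 1 higher, with COL1A1 at -2.93 and ACTA2 at -2.90, and the summed level of the 10 with a row was 680 to 1459 CPM against 3599 to 9573 CPM. Of 8 endothelial markers 6 were lower, with PECAM1 at -2.07, and the sum of the 9 with a row was 16.6 to 52.2 CPM against 50 to 111.1 CPM. Of 7 macrophage and leukocyte markers 3 were lower and 1 higher, and the sum of the 9 with a row was 15.9 to 25.7 CPM against 42.7 to 57.9 CPM. Of the red blood cell markers, ALAS2 and HBM had a row and were at 0 in all 6 sorted vehicle libraries. Their sum reached only 0.027 CPM in unsorted vehicle libraries, so they showed no difference with the sort. The summed level of the 36 cell-cycle genes was 640 to 841 CPM in sorted and 1066 to 1593 CPM in unsorted vehicle libraries. The part of these other cells in the cell-cycle difference was not tested, and in bulk RNA fewer dividing cells and less RNA per cell cannot be told apart.

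**Figure D3:**
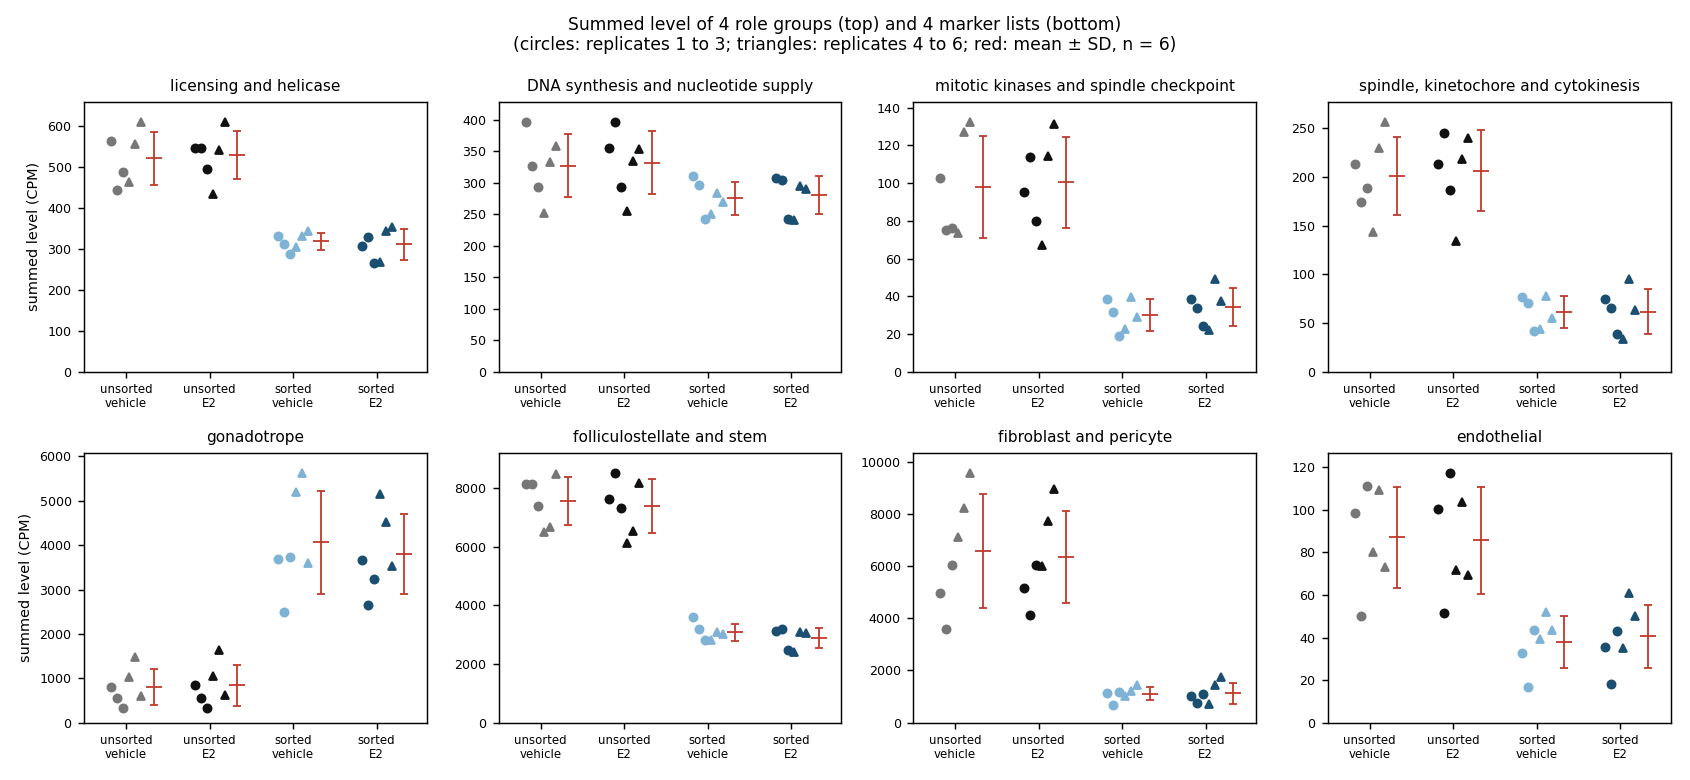
Summed CPM per library of 4 role groups (top row) and 4 marker lists (bottom row) in the 4 groups; circles are replicates 1 to 3, triangles replicates 4 to 6, red is the mean ± SD (n = 6). The licensing, mitotic kinase and spindle sums, like the folliculostellate and fibroblast sums, are lower in every sorted library than in any unsorted library, whereas the DNA synthesis sums overlap.

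Within a group, the lowest and highest values often fell in the same libraries from gene to gene. In unsorted vehicle, replicate 4 held the lowest value of 20 of the 36 genes and replicate 6 the highest of 21. In unsorted E2, the lowest value was in replicate 4 for 24 genes and the highest in replicate 6 for 17. Sorted vehicle replicate 3 was lowest for 20 genes and replicate 4 for 10, and in sorted E2 replicate 4 was lowest for 19, replicate 3 for 12 and replicate 5 highest for 20. The spread within a group was wider for mitotic genes, mostly in sorted libraries. The median SD of log2 CPM over the spindle genes was 0.50 in sorted vehicle and 0.77 in sorted E2, against 0.21 and 0.30 for the licensing genes. In unsorted libraries it was 0.34 with vehicle and 0.38 with E2, against 0.29 and 0.27. Spindle gene counts went down to 7 and 4 in the sorted groups, and to 33 and 43 in the unsorted ones. The anaphase pair reached 0.93 in sorted E2, where single counts were as low as 4.

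Other genes of the same pathways, from 6 lists, tended the same way with more exceptions. Of 150 genes 137 had a row, and of 135 tested in vehicle 79 were lower, 16 higher and 40 not called, with a median log2 fold change of -0.67. In the same fit 25.8% of all 14468 genes tested were called lower and 24.4% higher. The spindle motor and cytokinesis list had 15 of 19 lower, with ECT2 at -2.14, HMMR at -1.87 and KIF2C at -2.18. The chromosome condensation, cohesion and kinetochore list had 20 of 28 lower, among them ESPL1 (separase) at -1.64, and 2 higher, the cohesin subunits RAD21 at 0.85 and SMC3 at 0.50. The mitotic entry and exit list had 14 of 19 lower and none higher, with CDCA3 at -1.87, MELK at -1.40 and CCNF at -2.03, and the S phase checkpoint and recombination list had 10 of 16 lower, with EXO1 at -1.33 and CHEK2 at -1.05, and 1 higher, TIMELESS at 0.55. The list of origin recognition, replisome and Okazaki fragment genes had 15 of 38 lower, with DBF4 at -1.46 and ORC1 at -1.27, and 7 higher: GINS2, ORC4, POLD3, RFC3, ORC2, LIG1 and RPA1. Those 7 of 38 are no more than the share of all genes called higher. The E2F, RB and DREAM transcription list was even, with 5 lower and 5 higher of 15, not far above the shares of all genes. There E2F3, an activator of replication genes, was lower at -1.90 ± 0.16. The pocket proteins RBL2 and RBL1, which can repress such genes, were higher at 0.75 ± 0.09 and 1.17 ± 0.19. E2F6 was also called higher (adjusted p = 0.0015, edgeR). Other called genes of this list are not named here, so the named ones do not give its direction. RB1, the third pocket protein, was higher at 0.41 ± 0.14 (adjusted p = 0.022, edgeR) in vehicle, with adjusted p from 0.001 to 0.081 over 19 alternatives and 0.052 without unsorted vehicle replicate 6, and 0.36 ± 0.17 under E2 was not called (adjusted p = 0.084, edgeR). With E2, 74 of 135 were lower and 17 higher, beside 26% and 25.8% of all 14545 genes tested.

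The second comparison asks what 6 hours of E2 did to these genes. In sorted cells 1 of the 36 was called, TOP2A, which rose; 1.11% of 14334 genes tested were called higher and 0.258% lower. With the replicate number as a block, TOP2A was again the only one of the 36 called, while 7.03% of genes were called higher and 6.2% lower. In unsorted cells none of the 36 was called with edgeR, with or without the block, or with DESeq2; 0.212% of 15083 genes were called higher and 0.0331% lower (2.86% and 2.37% with the block). At an unadjusted p under 0.05 the unsorted comparison had 0 of the 36 without the block, 1 with it (PCNA, 0.13 ± 0.05) and 0 with DESeq2.

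TOP2A (ENSOARG00000014321) was 32.5, 26.2, 16.8, 17.2, 23.2 and 17.5 CPM in sorted vehicle replicates 1 to 6 and 47.4, 44.6, 37.6, 32.5, 39.7 and 37.7 CPM in sorted E2 replicates 1 to 6. All 6 pairs were higher with E2 (6.22% of all genes) and the groups did not overlap (1.03% of all genes higher without overlap, 0.579% lower), although sorted vehicle replicate 1 (32.52 CPM) came next to sorted E2 replicate 4 (32.54 CPM). In unsorted cells the values were 81.4, 68.2, 65.8, 52.4, 85.2 and 87.1 CPM with vehicle and 80.7, 88.4, 64.6, 58.1, 80.8 and 87.6 CPM with E2, and these overlapped almost entirely. The sorted E2 libraries remained below all unsorted libraries.

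The log2 fold change of TOP2A with E2 in sorted cells was 0.88 ± 0.17 (1.83-fold, adjusted p = 0.020, edgeR) without the block and 0.91 ± 0.07 (adjusted p = 2.9e-08) with it. Leaving out replicate 3, 4 or 6 of sorted vehicle ended the call in fits without the block (adjusted p = 0.057, 0.052 and 0.059, edgeR). Fits that left out a library were not run with the block. Adjusted p ranged from 2.9e-08 to 0.059 over 19 alternatives. Within replicates 1 to 3 the value was 0.81 and within replicates 4 to 6 it was 0.96. In unsorted cells it was 0.06 ± 0.14 (adjusted p = 1, edgeR). The difference between both responses, tested as an interaction, was 0.81 ± 0.23 without the block (adjusted p = 0.71, edgeR; 0.0264% of 15134 genes called higher) and 0.84 ± 0.14 with it (adjusted p = 0.0046; 0.33% of genes called higher). It was called in 1 of 31 alternatives, the one with the block over all libraries, with adjusted p from 0.0046 to 1. Apart from that fit, only the depth set fits among these alternatives used the block, so the count does not measure how firm the paired result is. The block itself gives each replicate number a single term shared by sorted and unsorted cells. Seen the other way, the sort difference of TOP2A was -1.71 ± 0.19 in vehicle and -0.90 ± 0.13 in E2, that is 3.27-fold and 1.87-fold lower in sorted cells; the interaction is the test of that change, and it uses the same libraries as the E2 comparison.

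**Figure D4:**
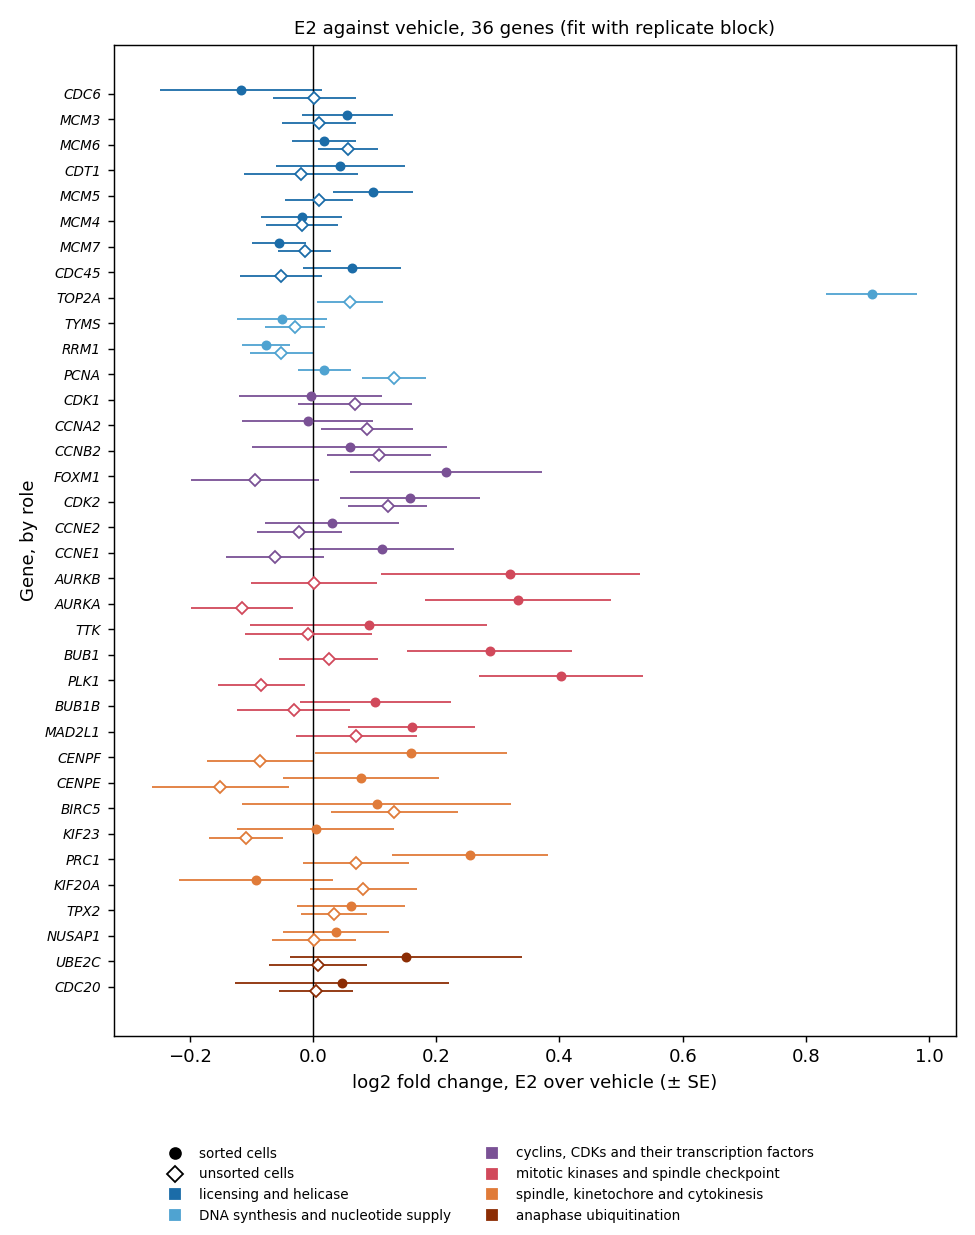
Log2 fold change of E2 over vehicle for 36 genes in sorted cells (filled circles) and unsorted cells (open diamonds), ordered as in the plot of sort differences; bars are ± SE from the fit with the replicate block, 6 libraries per group. TOP2A in sorted cells lies at 0.91, and the other 35 genes lie between -0.12 and 0.40 in sorted cells.

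The other 35 genes had E2 values between -0.15 and 0.39 in sorted cells without the block, with a median of 0.08. The mitotic kinases and checkpoint genes were all on the positive side, with a median of 0.31 over 7 genes, and none was called. PLK1 came nearest: its values were 3.81 to 9.28 CPM with E2 and 4.21 to 6.21 CPM with vehicle, and its log2 fold change with the block was 0.40 ± 0.13 (adjusted p = 0.051, edgeR). In replicates 4 to 6 alone it was 0.56 (adjusted p = 0.028), in replicates 1 to 3 it was -0.06, and over 19 alternatives its adjusted p ran from 0.028 to 1. AURKA and BUB1 had 0.33 ± 0.15 and 0.29 ± 0.13 with the block, both at an unadjusted p under 0.05 and not called. RRM1 was lower in 6 of 6 sorted pairs, as were 11.1% of all genes, by a small amount, -0.08 ± 0.04 with the block (adjusted p = 0.25, edgeR). The licensing genes had a median of 0.03, with CDC6 at -0.14 ± 0.21. In unsorted cells the 36 genes lay between -0.13 and 0.19.

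In the pathway lists few genes passed the test with E2. RFC3, a subunit of the clamp loader that places PCNA on DNA, was the 1 of 133 tested that was called in sorted cells without the block. It was 32.8 to 47.5 CPM (median 35.8) with vehicle and 49.3 to 69.5 CPM (median 54.5) with E2, groups that do not overlap, and its log2 fold change was 0.65 ± 0.11 (adjusted p = 0.0072, edgeR), called in all 19 alternatives. With the block 12 of the 133 were higher and 3 lower, where 7.03% of all genes were called higher and 6.2% lower, so the count of higher genes lies near the genome-wide share. Among them were GINS2 (0.48), GMNN (0.47) and E2F6 (0.58), which were higher, and TFDP2 (-0.39), RPA1 (-0.19) and RAD21 (-0.14), which were lower. GINS2 belongs to the replicative helicase, GMNN (geminin) blocks CDT1, and E2F6 is a repressor of the E2F family. In unsorted cells no pathway gene was called without the block (2 of 137 had an unadjusted p under 0.05), and RFC3 (0.61) and E2F6 (0.60) were called higher with it. The interaction was called for none of the 135 pathway genes tested in either fit, with 2 and 5 at an unadjusted p under 0.05.

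TOP2A lies in a stretch of the sheep genome with other E2-responsive genes, an arrangement that was looked up after the values were seen. In the RefSeq gene order of the ARS-UI_Ramb_v3.0 assembly, used here for neighbours and not for positions, the named protein-coding genes before TOP2A are RAPGEFL1, WIPF2, CDC6, RARA and GJD3, and those after it IGFBP4, TNS4, CCR7 and SMARCE1. RARA, the retinoic acid receptor alpha, was 23.7 to 47.5 CPM in sorted vehicle and 81 to 120.7 CPM in sorted E2 libraries, with no overlap (1.63 ± 0.17, adjusted p = 0.00035, edgeR). RAPGEFL1 was 8.51 to 21.9 CPM in sorted vehicle and 44 to 104.4 CPM in sorted E2 libraries (2.63 ± 0.25, adjusted p = 0.00017, edgeR). CDC6 lies between these 2 genes and did not pass the test, nor did WIPF2 at 0.06, IGFBP4 at -0.14, TNS4 at -0.02 or SMARCE1 at -0.03; GJD3 had no row and CCR7 too few counts.

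Responses in the unsorted cells differed along that stretch. RAPGEFL1 was also called there (2.20 ± 0.20, adjusted p = 0.00043, edgeR), RARA was 0.56 ± 0.17 (adjusted p = 0.46, edgeR; 0.58 ± 0.06 and adjusted p = 2.9e-06 with the block), and TOP2A was not called in either fit. The interaction with the block was 1.09 ± 0.21 for RARA (adjusted p = 0.018, edgeR) and 0.39 ± 0.31 for RAPGEFL1 (adjusted p = 1). Taking 8 named genes on each side, 2 of the 10 tested neighbours of TOP2A, RARA and RAPGEFL1, were called higher with E2 in sorted cells, as were 1.11% of all genes. The window was looked up after these values were seen, so the counts by window are descriptions and no test. Of the 34 other genes outside that window, 32 had no neighbour called higher and CDT1 and MCM4 had 1 each. With the block the TOP2A window had 4 higher, adding MSL1 (0.23) and CASC3 (0.17), and 1 lower, NR1D1 (-0.24). The most higher neighbours for any gene outside it was 5. In that fit 7.03% of all genes were called higher and 6.2% lower.

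**Figure D5:**
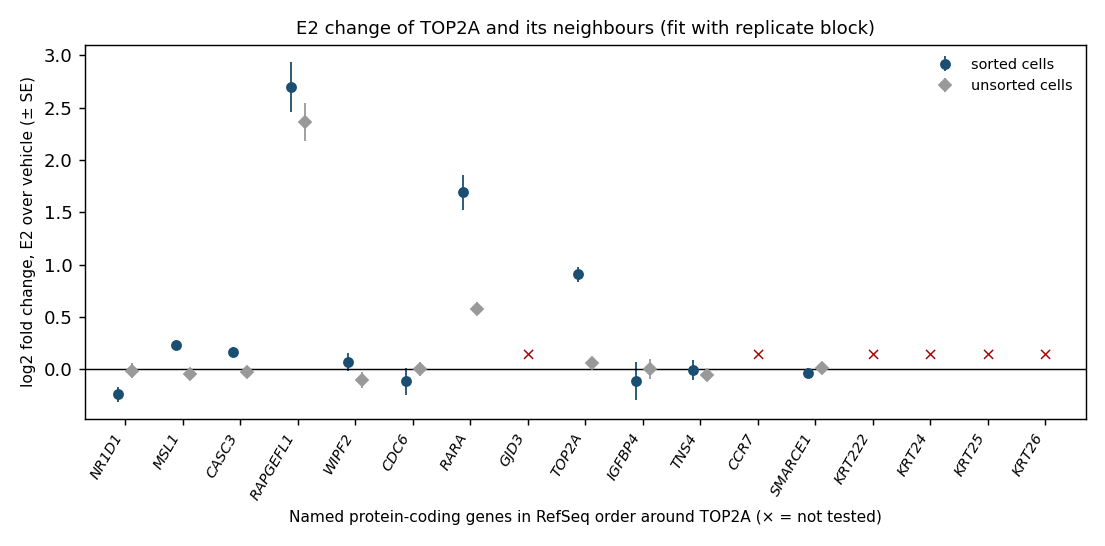
Log2 fold change of E2 over vehicle (± SE, fit with the replicate block, 6 libraries per group) for TOP2A and the 8 named protein-coding genes on each side in RefSeq order, in sorted cells (circles) and unsorted cells (diamonds); a cross marks a gene without a test. RAPGEFL1, RARA and TOP2A stand above the rest in sorted cells, with CDC6 and WIPF2 near 0 among them.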

How the data were processed

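Raw counts per gene were deposited by the authors in 3 tables; the counting was done with featureCounts 1.5.1, per the submitters' processing notes. The labels name no aligner, build or strand setting, so overlapping and antisense genes cannot be told apart. Vehicle libraries appear in more than 1 table with the same values. Counts were tested with edgeR 4.0.16 (R 4.3.3; TMM, filterByExpr, robust quasi-likelihood F-test, 2-sided), fitting only the groups compared; 36 genes of the list and all others were adjusted together. Alternatives were the replicate block, DESeq2 1.42.0, its size factors, other filters, each library left out, and each depth set. Of these, only the replicate block fit and the depth set fits included the block. Same-numbered libraries deviated together over 15134 genes (36 of 36 correlations between 0.29 and 0.86), so the numbers were taken to pair libraries; the labels do not say why. The fitting code was tested on simulated counts. Members, role groups, pathway and marker lists were chosen with earlier results of these data known. Named genes: all members, up to 4 per role in full by p in the vehicle sort comparison plus TOP2A, CDK1, CCNA2, CCNE1, CCNE2, CDC6, CDT1 and PCNA; every member called with E2; up to 3 per pathway list by p, and further called ones named after their values were seen.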

Additional observations from a re-analysis of the deposited data

Results flagged for a closer look

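Single libraries stood apart from the other 5 of their group for 5 of 144 combinations of gene and group, judged by the gap to the nearest library relative to the range; about 1 in 20 is flagged by chance. CCNA2 was 14.88 CPM in unsorted vehicle replicate 4, below the others of that group. NUSAP1 was 14.27 CPM and PRC1 11.71 CPM in unsorted E2 replicate 4, also below. BIRC5 was 14.65 CPM in unsorted vehicle replicate 6 and UBE2C was 4.383 CPM in sorted vehicle replicate 5, both above.

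The E2 response of TOP2A differed between sorted and unsorted cells by 0.835 on the log2 scale in the interaction fitted with the replicate block (adjusted p = 0.0046, edgeR). Without the block the adjusted p was 0.71, and it ranged from 0.0046 to 1 over 31 alternatives, most of them without the block. TOP2A was higher with E2 in 6 of 6 sorted pairs.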

How the results depend on the processing

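The sort comparison had 33 of the 36 genes lower in every setting with E2, and 32 to 33 with vehicle, where MCM7 was lost without a filter, in replicates 1 to 3 and in 8 of 12 fits that left out a library. With the replicate block 1 gene (PCNA) was higher in vehicle, beside 32.5% of all genes. Replicates 4 to 6 gave 2 in vehicle, beside 5104 of 15625 genes called higher, and 1 in E2, beside 5050 of 15606. Fits without 1 library gave 0 to 1 in vehicle, beside 2878 to 3509 genes called higher. For E2 in sorted cells, genes called higher and lower numbered 1008 and 888 with the block (pairing by replicate number), 300 and 101 with DESeq2, 389 and 174 in replicates 1 to 3, 717 and 560 in replicates 4 to 6 (2 of the 36 higher), and 103 to 171 and 20 to 47 without 1 library (0 to 1 of the 36). In unsorted cells they numbered 432 and 358 with the block, 101 and 23 with DESeq2, 57 and 10 in replicates 1 to 3, 399 and 331 in replicates 4 to 6, and 11 to 44 and 0 to 4 without 1 library. The interaction had 50 and 20 with the block (1 of the 36 higher), 16 and 6 with DESeq2, 0 without a filter, 1 and 1 in replicates 1 to 3, 36 and 11 in replicates 4 to 6, and 0 to 4 and 0 to 1 without 1 library. Sign changes were counted for the 36 genes in the sort comparisons, but in the others only for selected genes. Of the 36, these were TOP2A and PLK1, for E2 in sorted cells and the interaction. Such changes numbered 5. CDC45 in the E2 sort comparison ran from -0.149 to 0.005 over fits without 1 library (above 0 without unsorted E2 replicate 6). In replicates 1 to 3, PCNA was -0.005 and RRM1 -0.019 (sort, E2). PLK1 was not near 0 without the block, at 0.32 (E2, sorted) and 0.41 (interaction). In replicates 1 to 3 it was -0.059 and -0.061. With E2, many uncounted genes lay near 0 and crossed it without 1 library, as CDK1 did in sorted cells (-0.155 to 0.17). The cause was not tested. Counts down to 2 limit the mitotic genes in sorted libraries.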
